A study of Rattus norvegicus with 10 samples.

Results

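The interaction of choline and dietary oil in kidneys that the labels do not call necrotic asks whether the difference in gene expression between choline-deficient and choline-fed rats changes between a vegetable oil diet and a fish oil diet. It was computed for every probe set (a set of array probes read as 1 value, usually for 1 gene) as the deficient minus control difference under corn oil, minus the same difference under fish oil. Of the 10 arrays in the series, 8 entered this contrast, and 29214 of 29214 probe sets were measured in all of them. All animals were male weanling Wistar rats killed after 6 days on their diet, and each array held kidney RNA from 1 pool of 3 animals, with 2 pools in each group. The deficient corn oil group lacked choline and had vegetable fat, which the labels call corn oil and the treatment protocol describes as corn and hydrogenated oils. The control corn oil group had the same fat with choline added. The deficient fish oil group lacked choline and had menhaden oil, a fish oil, and the control fish oil group had menhaden oil with choline added. The remaining 2 arrays, deficient corn oil kidneys labelled necrotic, were left out of the contrast and served only to estimate the spread between pools. How necrotic animals were told from the others is not stated, so the deficient corn oil pools hold animals sorted by outcome, while neither fish oil group was divided in this way.

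Choline is a building block of the phospholipid phosphatidylcholine and, through betaine, a donor of methyl groups. Young rats deprived of it can develop acute renal failure with necrosis of the proximal tubules, and the title of the series names fish oil as protective. An injured tubule cell switches on immediate early transcription factors, cytokine signalling and secreted proteins that a healthy kidney makes little of, and it loses transporters and other products of the mature nephron.

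Array medians lay between 7.28 and 7.43 log2 units, and all values below are log2 signals unless a fold is named. The 8 arrays were summarised by principal components, of which the first held 31.1% of the variance. On it the deficient corn oil pools lay at -24.6 and -48.1 and the other 6 arrays between 2.7 and 22.4. The pools of a group differed by 2-fold or more at 488 probe sets for deficient corn oil, 473 for control fish oil, 271 for deficient fish oil and 166 for control corn oil. Defining proximal tubule markers were high on every array: the mean over 32 of them lay between 12.24 and 12.72 on the 8 arrays.

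At nearly all genes called in the interaction, expression rose with choline deficiency under corn oil and did not pass the test under fish oil, and most were high in the deficient corn oil kidneys alone. Leading examples were the kinin precursors Kng2 and Kng1, the scavenger receptor gene Olr1, the stress transcription factor Atf3 and the fibrinogen chain Fga. The growth factor binding protein gene Igfbp1 also rose under corn oil, but both of its fish oil groups lay above control corn oil as well. The interaction passed the threshold (limma, Benjamini-Hochberg adjusted p under 0.05) at 30 of 29214 probe sets, which is 0.103%. It was higher at 28 (0.0958%), meaning a larger rise or smaller fall with deficiency under corn oil, and lower at 2 (0.00685%). At an unadjusted p under 0.05 there were 2892 (9.9%). All 30 interactions were 2-fold or larger. Among all probe sets, 289 positive and 300 negative interactions reached that size, with a median of 0.02 and an SD of 0.38 across probe sets.

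The set of calls rested on few arrays. Without control corn oil pool 1 or pool 2, or without control fish oil pool 1 or pool 2, 0 probe sets were called, with 2355, 1672, 2338 and 3179 at an unadjusted p under 0.05 in limma. There were 7 calls without deficient fish oil pool 2, 21 without deficient fish oil pool 1, 24 without deficient corn oil pool 2 and 90 without deficient corn oil pool 1, of which 7, 13, 12 and 25 were among the 30. Dropping either necrotic array, which changes only the estimate of spread, gave 14 calls, 13 of them among the 30. The interactions themselves moved little: over the 8 fits that left out an array of the contrast they ran from 3.62 to 4.07 for Kng2, from 2.75 to 3.14 for Fga and from 1.95 to 2.17 for Prss22. The sign was the same for 30 of 30 called probe sets in each of those 8 fits. Calls were selected for interactions that are large against the spread between pools. Their sign could therefore hardly change when 1 pool was left out, and the kept sign is no separate support for the calls. With 2 pools a group, the p-values measure the spread between pools of animals, and the number of arrays limits their precision.

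The contrasts inside the interaction show where the 28 higher calls lie. Under corn oil 330 probe sets differed with deficiency (1.13%), 261 higher (0.893%) and 69 lower (0.236%), and 4435 (15.2%) had an unadjusted p under 0.05. Under fish oil limma called 0, with 1036 (3.55%) at an unadjusted p under 0.05 and a smallest adjusted p of 1. At the 28 the corn oil difference ran from 0.89 to 4.43 with a median of 1.85, and the fish oil difference from -1.02 to 0.57 with a median of 0.07, positive at 17 and negative at 11. All 28 were among the 261 called higher under corn oil, a contrast that shares its arrays with the interaction. Both deficient corn oil pools lay above the other 6 arrays at 26 of the 28, against 8.48% of all probe sets. Both control corn oil pools lay below the other 6 at 11 of the 28, against 9.29%. The same held for deficient fish oil at 5 of the 28 (2.1% of all probe sets) and for control fish oil at 4 (3.76%). The 28 were called on these same arrays, so these counts follow largely from the call and are no separate support for it.

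**Figure D1:**
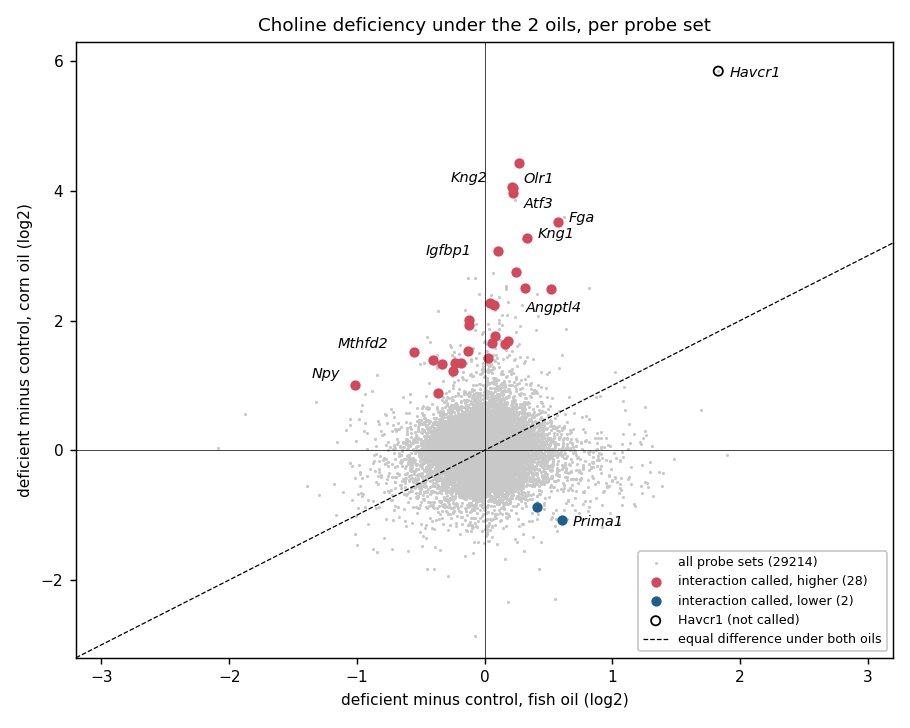
Each point is 1 probe set, with its deficient minus control difference under fish oil on the horizontal axis and under corn oil on the vertical axis, both in log2 units, and the called probe sets coloured. The 28 higher calls sit well above the diagonal of equal differences, with fish oil differences between -1.02 and 0.57.

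An interaction can arise from any of the 4 groups, so each called probe set was also described by the group whose mean lay farthest from the mean of the other 3. For the 28 higher calls this was deficient corn oil, above the rest, at 24. It was control corn oil, below the rest, at 3, among them Angptl4, and deficient fish oil, below the rest, at 1, which was Npy. Over all probe sets the group standing apart was deficient corn oil at 33.4%, control corn oil at 31.3%, control fish oil at 21.7% and deficient fish oil at 13.6%. This description also uses the arrays that gave the calls. 

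**Figure D2:**
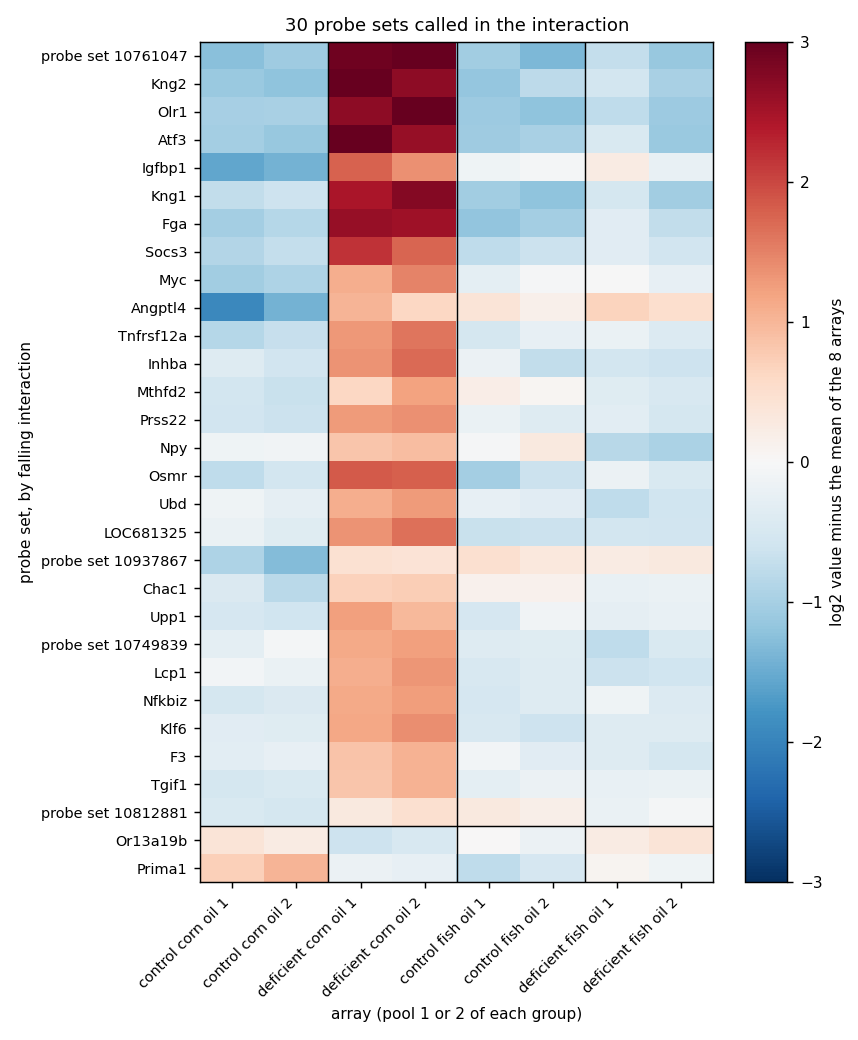
Rows are the called probe sets and columns the arrays, coloured by log2 signal relative to the row's mean over the 8 arrays of the contrast. The deficient corn oil columns are the high ones in most rows, and the rows of Npy and Angptl4 show low deficient fish oil and low control corn oil columns.

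Kng2 and Kng1 encode kininogens, the precursors from which kallikreins release kinins, and are known mainly as liver products. The probe set of Kng2 (10751988) read 7.10 and 7.03 in control corn oil, 11.35 and 10.90 in deficient corn oil, 7.06 and 7.44 in control fish oil, and 7.67 and 7.26 in deficient fish oil. The deficient corn oil pools stood far above the other 6 arrays, which overlapped. The interaction was 3.85 ± 0.33 (moderated SE, 2 pools a group, as for every ± below; limma adjusted p = 0.00826), a 14.4-fold larger change under corn oil. Kng1 (10940477) read 6.43 and 6.56 in control corn oil, 9.62 and 9.93 in deficient corn oil, 6.14 and 5.98 in control fish oil, and 6.64 and 6.13 in deficient fish oil. Again only the deficient corn oil pools were high, with an interaction of 2.95 ± 0.34 (adjusted p = 0.0282). A second Kng1 probe set (10755135) had an interaction of 1.64 that did not pass (adjusted p = 0.312). The 2 genes are close paralogs, and signal shared between their probes was not tested.

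Their promoters are shown because the genes moved together and because the windows share sequence. The RefSeq promoter table (build GRCr8) held windows for 20 of the 26 named genes called. Printed here are the 250 bases before the annotated start of each gene, 5′ to 3′ on the gene's strand, with capitals marking a match to a searched motif. Kng2 lies on the plus strand (chr11:91418220-91418469), Kng1 on the minus strand (chr11:91340149-91340398), and Olr1, described further on, on the minus strand (chr4:164634548-164634797).
Kng2: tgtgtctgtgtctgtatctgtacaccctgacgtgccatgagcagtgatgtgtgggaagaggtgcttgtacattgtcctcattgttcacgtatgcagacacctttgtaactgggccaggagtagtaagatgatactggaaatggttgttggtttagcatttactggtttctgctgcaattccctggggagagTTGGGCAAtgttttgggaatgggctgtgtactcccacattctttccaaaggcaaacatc
Kng1: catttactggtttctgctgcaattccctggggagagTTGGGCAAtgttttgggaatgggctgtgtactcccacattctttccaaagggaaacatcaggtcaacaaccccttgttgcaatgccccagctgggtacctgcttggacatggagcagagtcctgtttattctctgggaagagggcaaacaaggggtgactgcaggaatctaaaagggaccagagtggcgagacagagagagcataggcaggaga
Olr1: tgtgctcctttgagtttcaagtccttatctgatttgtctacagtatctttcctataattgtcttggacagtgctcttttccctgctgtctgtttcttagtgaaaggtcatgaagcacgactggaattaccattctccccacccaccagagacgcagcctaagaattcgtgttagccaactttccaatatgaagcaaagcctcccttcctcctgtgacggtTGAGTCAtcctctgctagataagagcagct

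The Kng1 and Kng2 windows held an identical run of 87 bases, which starts 250 bases before the start of Kng1 and 95 bases before that of Kng2. The capitals in both mark the same match to the C/EBP motif TTGCNNAA, read on the opposite strand, which begins 214 bases before the start of Kng1 and 59 before that of Kng2. C/EBP factors are transcription factors active in liver and in the acute phase response. In Olr1 the capitals mark a match to the AP-1 motif TGANTCA, 30 bases before the start. On both strands of all 33469 windows in the table, cut to the same 250 bases, the C/EBP motif occurred in 9.22% and the AP-1 motif in 6.34%. Among 18 genes called higher that had a window, 4 held the C/EBP motif, 2 the AP-1 motif, 3 the NF-kB motif (1.3% of all windows), 2 the STAT motif TTCNNNGAA (7.67%) and 1 the antioxidant response core TGACNNNGC (10.1%). Kng1 and Kng2 are among the 4 with the C/EBP motif, through the same match in their shared run, so they are not separate occurrences. The window of Igfbp1, not printed, held no match to any searched motif. That of Havcr1, a gene not called and described further on, is not printed either. It held a match to the C/EBP motif on the opposite strand, 111 bases before the start. Motif matches describe letters in the window and are no evidence of binding.

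Fga encodes the alpha chain of fibrinogen, the clotting protein, which liver makes and injured tubules can also express. Its signal was 9.0 and 9.16 in control corn oil, 12.63 and 12.57 in deficient corn oil, 8.84 and 9.0 in control fish oil, and 9.69 and 9.29 in deficient fish oil. The fish oil pools did not overlap either, with a difference of 0.57 against 3.52 under corn oil. The interaction was 2.95 ± 0.25 (adjusted p = 0.00826). The beta and gamma chain genes, named after their values were seen, had interactions of 2.98 (Fgb, adjusted p = 0.0886) and 3.62 (Fgg, adjusted p = 0.059), neither past the threshold. F3 encodes tissue factor, which starts coagulation, and its interaction of 1.47 ± 0.19 passed (adjusted p = 0.044), with differences of 1.23 under corn oil and -0.25 under fish oil. Of 28 measured genes of acute phase, complement and coagulation, 2 were higher and 0 lower in the interaction, against 0.159% higher and 0.0138% lower of 14506 genes. Their median interaction was 0.45, and that of all genes -0.00. Of 12 kallikrein and kinin genes the 2 kininogens were higher, with a list median of 0.15. The 13 measured hepatocyte markers had 0 calls and a median of -0.17, with 0 positive and 0 negative at an unadjusted p under 0.05. Their levels varied between pools of a group: albumin (Alb) read 11.32 and 12.18 in control corn oil, 6.69 and 11.09 in deficient corn oil, 10.17 and 8.49 in control fish oil, and 8.78 and 9.71 in deficient fish oil. Its interaction was -2.79 ± 1.68 (adjusted p = 0.607), and the part of liver transcripts in the values of Fga and the kininogens was not tested.

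Genes of the immediate early class, which cells switch on within a short time of a stimulus, were the list with the largest median interaction. Atf3, a stress-induced repressor, read 7.35 and 7.22 in control corn oil, 11.52 and 10.97 in deficient corn oil, 7.29 and 7.39 in control fish oil, and 7.89 and 7.24 in deficient fish oil. Only the deficient corn oil pools were high, and the fish oil groups overlapped. The interaction was 3.74 ± 0.35 (adjusted p = 0.0123). Myc, a regulator of growth, read 7.90 and 8.03, then 10.04 and 10.44, under corn oil without and with deficiency, and 8.66 and 8.91, then 8.94 and 8.70, under fish oil. Its interaction was 2.24 ± 0.24 (adjusted p = 0.0242), and control corn oil was the lowest group. Klf6, a zinc finger factor induced by injury, followed at 1.48 ± 0.17 (adjusted p = 0.0282). These were the 3 of 27 measured members that passed, against 0.159% called higher of all genes. The list's median interaction was 0.91, from differences with a median of 0.95 under corn oil and 0.10 under fish oil, and 25 of 27 interactions were positive, against 7195 of 14506 genes.

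**Figure D3:**
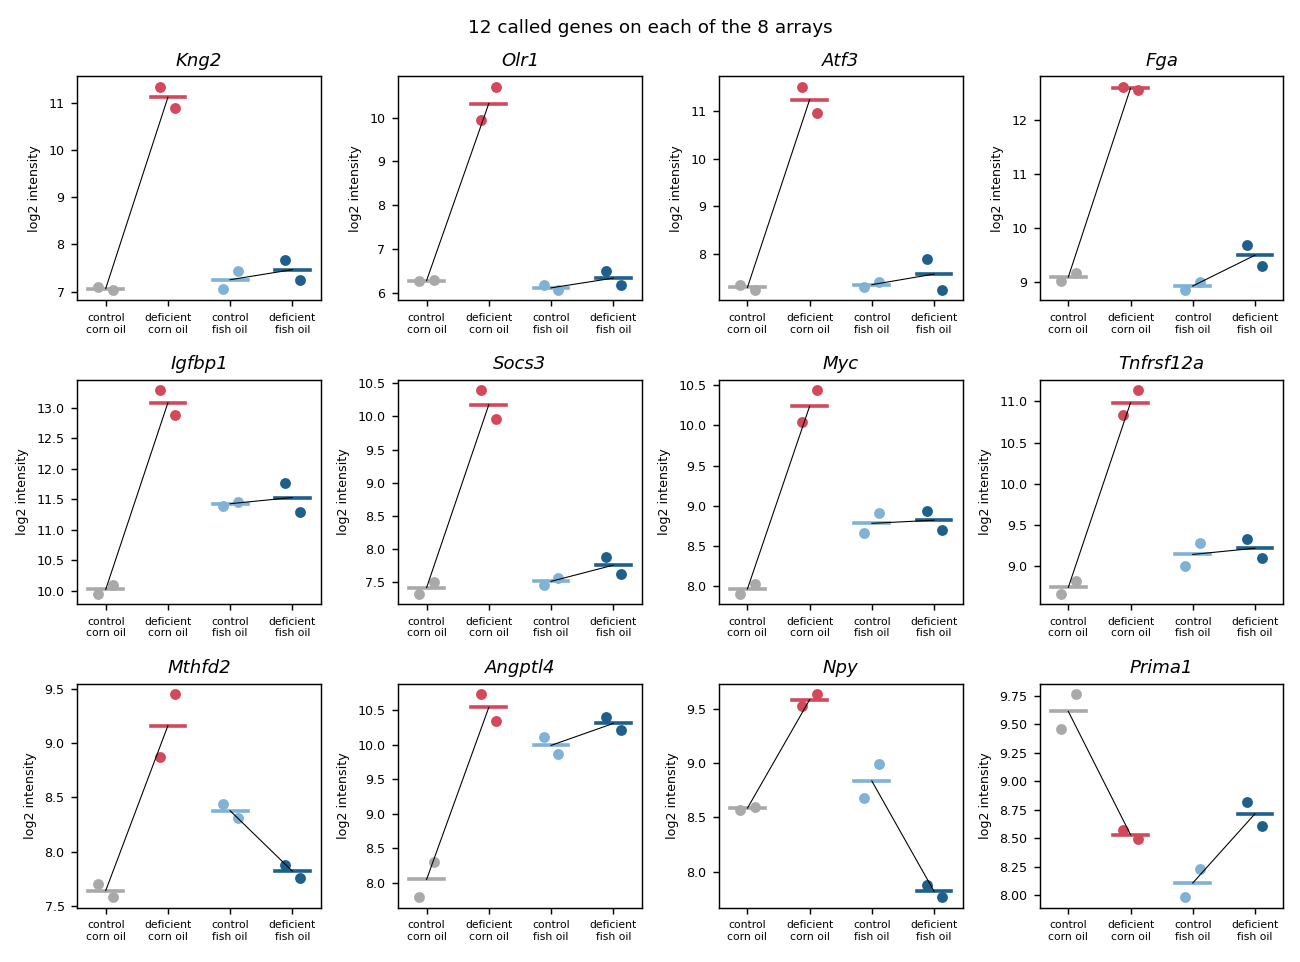
Log2 signal on each of the 8 arrays, as points by group, for 12 called genes, with short bars at the group means and lines joining control to deficient under each oil. In most panels both deficient corn oil pools are above all other points, while Npy, Angptl4 and Prima1 show other patterns.

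Of 37 measured cytokine and chemokine genes 3 were higher in the interaction and 0 lower, with a median of 0.85. Over all 14506 genes 0.159% were called higher and 0.0138% lower. Socs3, the feedback inhibitor of cytokine receptors that signal through STAT3, read 7.33 and 7.51 in control corn oil and 10.39 and 9.95 in deficient corn oil. Under fish oil it read 7.46 and 7.57 in controls and 7.89 and 7.63 in deficient pools. The deficient corn oil pools were high and the other 6 arrays close to each other, with an interaction of 2.51 ± 0.23 (adjusted p = 0.0123). Osmr, a subunit of the receptor for oncostatin M, read 8.56 and 8.77, then 11.18 and 11.13, under corn oil, and 8.30 and 8.68, then 9.15 and 8.87, under fish oil. Its fish oil difference was 0.52 against 2.49 under corn oil, and the interaction was 1.97 ± 0.23 (adjusted p = 0.0282). Nfkbiz, an NF-kB cofactor, was the other list member called, with 1.50 ± 0.18 (adjusted p = 0.0393). Tnfrsf12a, the receptor for the cytokine TWEAK, had an interaction of 2.16 ± 0.22 (adjusted p = 0.0189) and was the 1 of 24 tubular injury genes that passed. Uncalled values among ligands and adhesion genes were 2.31 for Lif (adjusted p = 0.0562), 1.92 for Il6 (adjusted p = 0.189) and 1.52 for Icam1 (adjusted p = 0.059), named after their values were seen.

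Markers of leukocytes stood beside these genes. All 21 measured monocyte and macrophage markers had a positive interaction, with 0 past the threshold in limma. At an unadjusted p under 0.05, 11 of the 21 were positive, against 6.19% of all genes positive and 4.8% negative. Their mean level was 9.24 and 9.76 in the deficient corn oil pools and between 8.29 and 8.64 on the other 6 arrays, which did not overlap with them. Among single markers the interaction was 1.94 for Ccr2 (adjusted p = 0.329), 0.99 for Cd68 (adjusted p = 0.351) and 0.38 for Cd163 (adjusted p = 0.68). The 12 neutrophil markers had 0 calls and a median interaction of 0.64, with mean levels of 6.74 and 6.94 in the deficient corn oil pools and 6.07 to 6.44 on the others. Lymphocyte markers had a median of 0.19 over 14 genes. The part of leukocytes in the results above was not tested, and in whole kidney a change in the number of cells of a type and a change in RNA per cell cannot be told apart.

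Secreted and cell surface genes outside those lists made up several of the largest interactions. Olr1, a scavenger receptor for oxidised lipoprotein, read 6.27 and 6.29 in control corn oil, 9.94 and 10.71 in deficient corn oil, 6.17 and 6.06 in control fish oil, and 6.50 and 6.17 in deficient fish oil. The deficient corn oil pools alone were high, with an interaction of 3.82 ± 0.32 (adjusted p = 0.00826). Igfbp1, which binds insulin-like growth factors, read 9.95 and 10.10, then 13.29 and 12.88, under corn oil, and 11.40 and 11.47, then 11.78 and 11.29, under fish oil. Here control corn oil was the lowest group, below both fish oil groups, and the interaction was 2.96 ± 0.28 (adjusted p = 0.0125). Inhba, the activin A subunit, had an interaction of 2.13 ± 0.27 (adjusted p = 0.045), and it and Igfbp1 were the 2 of 33 growth factor genes called. Over all genes 0.159% were called higher. The serine protease gene Prss22 read 6.74 and 6.67, then 8.59 and 8.67, under corn oil, and 7.10 and 6.91, then 6.99 and 6.77, under fish oil. Its pools lay close together in every group, and the interaction was 2.06 ± 0.18 (adjusted p = 0.00826).

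For some genes deficiency went with differences of opposite sign under the 2 oils, but 0 fish oil differences passed the threshold in limma. Npy, the neuropeptide Y gene, read 8.57 and 8.60 in control corn oil, 9.53 and 9.64 in deficient corn oil, 8.68 and 8.99 in control fish oil, and 7.87 and 7.76 in deficient fish oil. Under each oil the groups did not overlap, and deficient fish oil was the lowest of the 4. The differences were 1.00 under corn oil (adjusted p = 0.0302) and -1.02 under fish oil (adjusted p = 1, unadjusted p = 0.000196 in limma), and the interaction was 2.02 ± 0.23 (adjusted p = 0.0282). Mthfd2, a mitochondrial folate enzyme that the stress factor ATF4 induces, read 7.71 and 7.58, then 8.87 and 9.45, under corn oil, and 8.44 and 8.31, then 7.88 and 7.76, under fish oil. The interaction of this probe set (10863512) was 2.07 ± 0.27 (adjusted p = 0.0451), and that of the gene's other probe set (10870316) was 1.84 and did not pass (adjusted p = 0.0651). Chac1, which degrades glutathione and is another ATF4 target, had differences of 1.33 and -0.33 and an interaction of 1.66 ± 0.22 (adjusted p = 0.0451). With 1 probe set a gene, chosen by the highest mean signal, Chac1 was the 1 of 25 ATF4 amino acid response genes called. The list median was 0.34, and over all genes 0.159% were called higher. The asparagine synthetase gene Asns, of the same list and named after its values were seen, had 1.88 (adjusted p = 0.0532).

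Angptl4, a lipoprotein lipase inhibitor induced by fatty acids through PPAR receptors, had a different pattern. It read 7.79 and 8.31 in control corn oil, 10.74 and 10.35 in deficient corn oil, 10.11 and 9.87 in control fish oil, and 10.40 and 10.22 in deficient fish oil. Control corn oil was low and the other 3 groups lay within 9.87 to 10.74. The interaction was 2.18 ± 0.28 (adjusted p = 0.045), from differences of 2.50 and 0.32. It was the 1 of 44 PPAR alpha and fatty acid oxidation genes called, against 0.159% called higher of all genes. That list's median was -0.11, and Cyp4a1, its fatty acid hydroxylase, had -0.31 (adjusted p = 0.809). Metallothionein Mt1 (1.23, adjusted p = 0.059) and sulfiredoxin Srxn1 (1.29) were not called.

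Of the 26 named genes called, 5 lay outside the naming rule and are given because the calls are few. They were Ubd (1.79), Upp1 (1.60), Lcp1 (1.52), Tgif1 (1.40) and the locus LOC681325 (1.69). Ubd encodes a ubiquitin-like modifier induced by inflammation, Upp1 a uridine phosphorylase, Lcp1 a leukocyte actin-bundling protein and Tgif1 a repressor of TGF-beta signalling. Another 4 called probe sets had no gene name here, with interactions of 4.16, 1.67, 1.59 and 1.25. The first of these (10761047) was the largest called interaction of all, with a corn oil difference of 4.43 and a fish oil difference of 0.27.

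Only 2 interactions were called lower. Prima1, which anchors acetylcholinesterase in membranes, read 9.46 and 9.77 in control corn oil, 8.57 and 8.49 in deficient corn oil, 7.98 and 8.23 in control fish oil, and 8.82 and 8.61 in deficient fish oil. Control corn oil was the highest group and control fish oil the lowest, and the interaction was -1.69 ± 0.21 (adjusted p = 0.0431). The olfactory receptor gene Or13a19b read 4.67 and 4.55, then 3.67 and 3.80, under corn oil, and 4.30 and 4.11, then 4.55 and 4.68, under fish oil. Its interaction was -1.29 ± 0.17 (adjusted p = 0.0461), at a signal low on all 8 arrays. Among the uncalled negative values with the smallest p were Kcnj13, a potassium channel, at -1.56 (adjusted p = 0.093) and Crispld1 at -1.20 (adjusted p = 0.0532). Prostaglandin synthase Ptgs2 was at -1.39 (adjusted p = 0.129).

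The standard marker of proximal tubule injury, Havcr1, did not pass in the interaction. Under corn oil alone its difference of 5.85 was called (limma adjusted p = 0.0051), and its fish oil difference of 1.83 was not. Havcr1, which encodes KIM-1, a receptor on injured tubule cells, read 6.67 and 6.56 in control corn oil, 11.82 and 13.11 in deficient corn oil, 6.49 and 6.37 in control fish oil, and 9.30 and 7.22 in deficient fish oil. Both deficient groups lay above both control groups without overlap, and the deficient corn oil pools lay above the deficient fish oil pools. The interaction of 4.02 ± 0.85 was among the largest measured, but its pools differed widely (adjusted p = 0.184). Without deficient fish oil pool 1 it was 5.06 (adjusted p = 0.0366), and without deficient fish oil pool 2 it was 2.98 (adjusted p = 0.294). It did not pass in 19 of 20 alternatives, with adjusted p between 0.0366 and 0.568. Lcn2, another injury marker, had an interaction of 1.68 (adjusted p = 0.293). Its differences were 2.50 under corn oil (adjusted p = 0.00833 in limma) and 0.82, not called, under fish oil. The tubular injury list had a median of 0.83, with 22 of 24 interactions positive.

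Genes of the mature nephron had negative medians and no calls. The median interaction was -0.33 for 32 proximal tubule genes, -0.45 for 10 of the thick ascending limb, -0.77 for 9 of the distal convoluted and connecting tubule and -0.31 for 18 of the collecting duct, with 0 called in limma in each list. Unadjusted p under 0.05 with a negative sign was found for 7, 3, 5 and 6 of them, against 4.8% of all genes. With a positive sign it was found for 1, Slc13a1 of the proximal tubule list at 0.65 (adjusted p = 0.319). Values at the transporter Slc34a1, the urinary protein Umod and the growth factor gene Egf were -0.25, -0.25 and -0.48, none called. Podocyte and endothelium lists had medians of -0.25 and -0.33. Cell cycle genes had a median of -0.48 over 41 genes with 0 called, and 3 negative at an unadjusted p under 0.05. Their mean level was 8.09 and 7.60 in deficient corn oil, 8.47 and 8.17 in control corn oil, and between 7.18 and 7.27 on the 4 fish oil arrays.

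**Figure D4:**
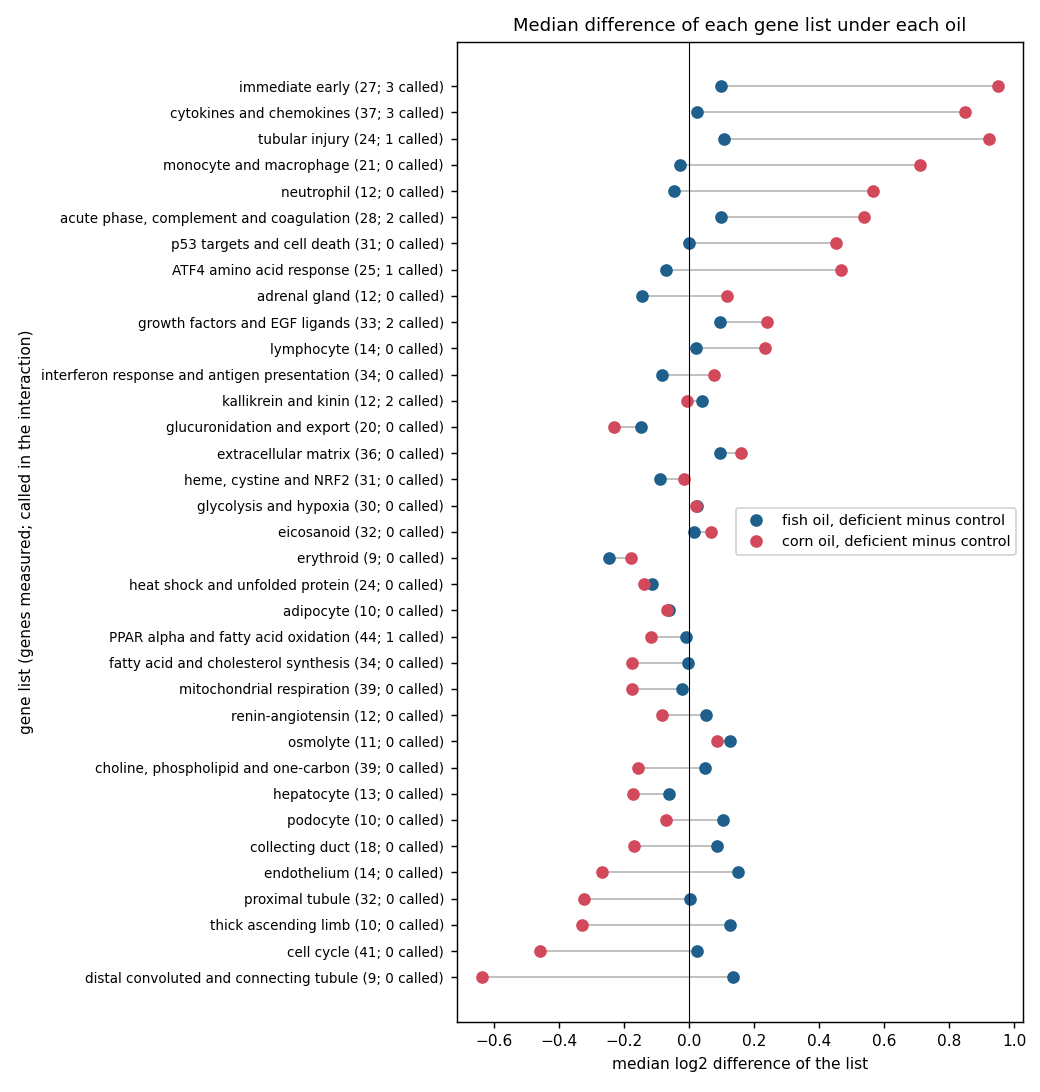
Points give the median deficient minus control difference of each gene list under corn oil and under fish oil, in log2 units. Corn oil medians spread from -0.64 for distal convoluted and connecting tubule genes to 0.95 for immediate early genes, while fish oil medians lie between -0.25 and 0.15.

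Of 39 measured choline, phospholipid and one-carbon genes 0 were called in limma, with 1 positive and 4 negative at an unadjusted p under 0.05 and a median of -0.17. Over all genes 6.19% were positive and 4.8% negative at that level. Chdh, which oxidises choline toward betaine, had an interaction of 0.51 ± 0.28 (adjusted p = 0.578). Mitochondrial respiration genes had a median of -0.13 over 39, heat shock and unfolded protein genes -0.00 over 24, eicosanoid genes 0.02 over 32, and NRF2 target and heme genes 0.07 over 31, each with 0 called and with 0, 0, 4 and 9 positive and 3, 0, 3 and 0 negative at an unadjusted p under 0.05. The extracellular matrix, interferon, eicosanoid and hypoxia lists were read by their smallest p-values, none past the threshold. Interactions were positive for 21 of 36 extracellular matrix, 22 of 34 interferon, 16 of 32 eicosanoid and 16 of 30 hypoxia genes. The list medians were 0.09, 0.16, 0.02 and 0.04, so the members named here do not stand for their lists. Tagln, a smooth muscle actin-binding protein, had an interaction of 1.64 (adjusted p = 0.059), and Thbs1, a matrix glycoprotein, had 1.06 (adjusted p = 0.0679). Irf1, an interferon-induced factor, was at 1.66 (adjusted p = 0.195), at 2.13 (adjusted p = 0.0216) without deficient corn oil pool 2 and at 1.19 (adjusted p = 0.07) without pool 1. It did not pass in 19 of 20 alternatives, with adjusted p up to 0.563. The phospholipase Pla2g2a was at 1.67 (adjusted p = 0.0654), with differences of 0.70 under corn oil and -0.96 under fish oil. Its deficient fish oil pools, at 7.58 and 7.53, were the lowest of the 8 arrays. In the hypoxia list Adm was at 0.85 (adjusted p = 0.195 in limma) and Ankrd37 at -0.83 (adjusted p = 0.13). Among other lower values Masp1, a protease of complement activation, was at -1.10 (adjusted p = 0.0832) and the angiotensin receptor gene Agtr1b at -0.96 (adjusted p = 0.354). The p53 target and cell death list had 0 of 31 called, 13 positive (6.19% of all genes) and 0 negative (4.8%) at an unadjusted p under 0.05, and a median of 0.39, with Gadd45g at 1.70 (adjusted p = 0.093) and Bcl2a1 at 1.49 (adjusted p = 0.0679).

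The corn oil and fish oil differences share no array, so the genes called under corn oil could be read in the fish oil arrays. The 261 probe sets that rose with deficiency under corn oil had a median difference of 1.14 there, a value that their selection raises, and of 0.07 under fish oil. Under fish oil 187 of them (71.6%) had a positive difference, against 48.7% of all probe sets. An unadjusted p under 0.05 in that direction in limma was found at 13 of the 261, against 364 of all 29214 probe sets. At 0 of the 261 did the fish oil difference exceed 0.5 times that under corn oil. The positive shift was uneven between pools: relative to the control fish oil mean, the median was 0.11 in deficient fish oil pool 1, with 72% above it, and 0.02 in pool 2, with 55.6% above it. The 69 probe sets that fell under corn oil, with a median of -0.86, had a fish oil median of 0.04, and 24 of 69 (34.8%) had a negative difference. A negative difference with an unadjusted p under 0.05 in limma was found at 5 of the 69, against 672 of all 29214 probe sets. At 2 of the 69 the fish oil difference was a fall of more than 0.5 times that under corn oil. Over all 29214 probe sets, which share the RMA processing, Pearson's r of the 2 differences was 0.03 and Spearman's rho -0.01.

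**Figure D5:**
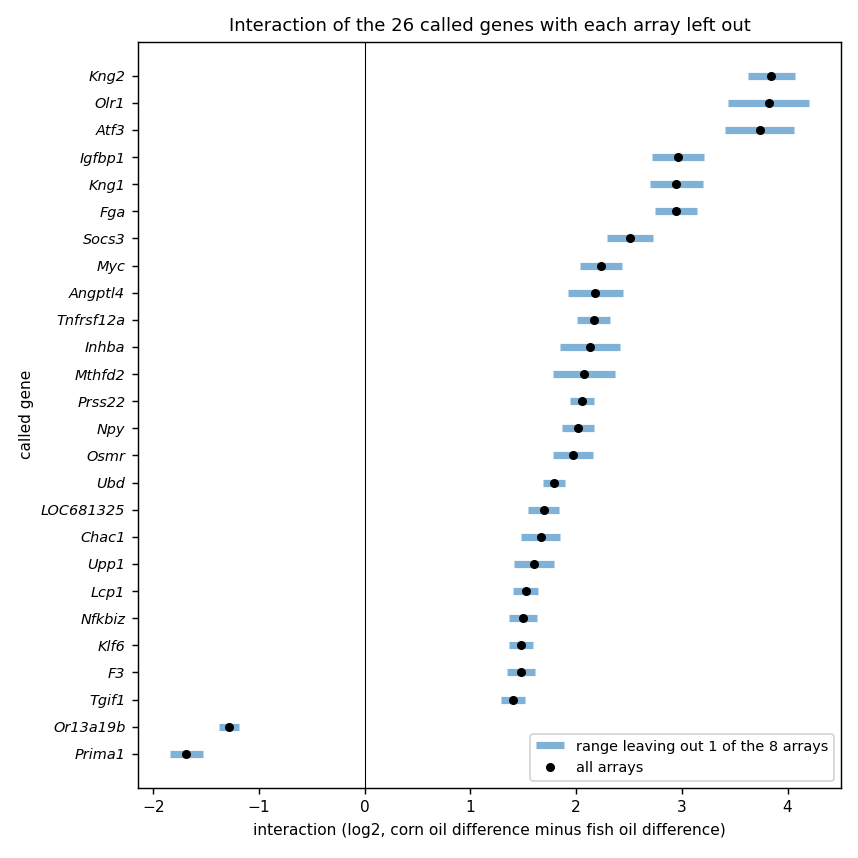
Points give the interaction of each of the 26 called genes with all arrays, in log2 units, and bars its range over the 8 fits that leave out 1 array of the contrast. Genes selected by their call could hardly change sign in such fits. Every gene keeps its sign in each fit, although leaving out any of the 4 control arrays leaves 0 called.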

How the data were processed

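Kidney RNA of 10 pools was measured on expression arrays. Each deposited value is a probe set's log2 intensity after RMA (background correction, quantile scaling and probe summary) by the authors, per the submitters' processing notes, which name no version. Values entered the fit unchanged. The platform annotation listed 15633 probe sets, of which 15310 had 1 gene symbol and 323 several; 15279 were matched to the current RefSeq gene table (GRCr8), 31 kept the platform symbol, and 13581 were not listed and stayed unnamed. This gave 14506 genes.

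All 10 arrays (5 groups of 2 pools) entered 1 model in R 4.3.3 with limma 3.58.1 (lmFit, then eBayes, two-sided; 5 residual degrees of freedom and 3.59 from the prior). Benjamini-Hochberg adjustment ran over the 29214 probe sets of a contrast, and an adjusted p under 0.05 is called; verbs of change for a gene mean a call. Lists use 1 probe set a gene, that with the highest mean. Named genes were the 15 largest called interactions in each direction, filled to 10 with the smallest p where fewer passed, up to 3 called members a list (or the 2 smallest p in process lists without a call), and 8 fixed genes. Pemt, 1 of these, is not analysed here. Members and lists were chosen with earlier results of these data known. Replicate numbers do not pair the pools. Alternatives were other scalings, filters, a 4-group fit, prior and weight settings, a replicate block, a looser threshold and leaving out each array. The fit was tested on simulated data, with changes planted in deficient corn oil alone and independent noise between arrays. Such a test cannot speak to how animals were sorted. Promoters were searched with Python 3.11.15 and figures drawn with matplotlib 3.10.9.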

Additional observations from a re-analysis of the deposited data

Results flagged for a closer look

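The deficient minus control difference was unlike under corn oil and fish oil by a direct test, the interaction in limma, at 30 probe sets. The deficient corn oil pools hold animals not labelled necrotic, while the fish oil groups were not divided. The oil and this sorting cannot be told apart. Among named genes the interaction was 3.85 for Kng2, 3.82 for Olr1, 3.74 for Atf3, 2.96 for Igfbp1, 2.95 for Kng1 and 2.95 for Fga. It was 2.51 for Socs3, 2.24 for Myc, 2.18 for Angptl4, 2.16 for Tnfrsf12a, 2.13 for Inhba, 2.07 for Mthfd2, 2.06 for Prss22 and 2.02 for Npy. It was 1.97 for Osmr, 1.66 for Chac1, 1.50 for Nfkbiz, 1.48 for Klf6 and 1.47 for F3, and it was -1.29 for Or13a19b and -1.69 for Prima1. Each of these calls was absent when any of the 4 control arrays was left out, with 0 probe sets called then, while the values moved little: leaving out 1 array of the contrast gave 3.62 to 4.07 for Kng2, 2.75 to 3.14 for Fga and 1.95 to 2.17 for Prss22.

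The necrotic arrays, which the contrast does not use, carried a signal for the same genes. At 27 of the 28 probe sets called higher, both necrotic arrays lay above all 6 control corn oil and fish oil arrays, against 19.5% of all probe sets. They lay above both deficient corn oil pools at 11 of the 28 and below both at 9. The necrotic arrays enter the estimate of spread in the fit, and the 6 arrays they are set against entered the contrast that gave the calls.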

How the results depend on the processing

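Against 30 called interactions, there were 61 with probe sets of a mean above the 25th percentile, 87 above the 50th, 112 with only probe sets of 1 gene symbol, 14 with only the 4 groups fitted, 67 with a trend and robust prior, 46 with array weights and 88 at a threshold of 0.10. Median centring gave 39, quantile scaling 29 and cyclic loess 34. With the replicate block there were 11, of which 10 were among the 30; replicate numbers shared between groups showed no pairing, with correlations of pool differences between -0.17 and 0.14. Leaving out 1 array gave 0 to 90. Calls under corn oil, reported as 330, were 542 above the 50th percentile, 577 with 1 gene symbol, 540 with the trend and robust prior, 668 at 0.10 and 255 with the block, and 32 to 714 with 1 array left out. Under fish oil 0 were called in every setting but 1: without deficient fish oil pool 1 there were 2, and the range over left-out arrays was 0 to 2. Filters change how many probe sets are tested and left-out arrays how many samples; for the other settings the cause was not tested. No named gene changed sign under any setting run. Over named genes and settings, 1089 results kept their side of the threshold, 221 lost and 59 gained a call; for the 4 called probe sets with no gene name, 39 kept and 37 lost it. Kng2, Olr1, Atf3, Igfbp1, Fga and Prss22 lost theirs in 4 of 20 settings, each a control array left out.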
